A study of Homo sapiens with 12 samples.

Results

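The genes of NADPH supply followed here through 12 libraries were PGD, PGLS, TKT, TALDO1, ME1, IDH1, IDH2, MTHFD1 and NNT, 9 of the 57773 genes in the deposited table. They were chosen by gene name, with earlier fold changes of the same libraries known, and no threshold on a measured value was part of the choice. Their values and p-values below therefore describe them and are not independent support. Of the 9, 8 passed the filter on low values, a level of at least 1 in at least 3 libraries, and NNT did not. The tests below were fitted over all 18648 genes that passed, and p-values were adjusted over all of them.

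The RNA came from A498, an established human kidney carcinoma cell line, transfected with an siRNA against ELOVL2 (siELOVL2), an siRNA against ELOVL5 (siELOVL5), both siRNAs (double knockdown) or a control siRNA, 3 biological replicates per group. Both targets encode fatty acid elongases, which extend polyunsaturated chains. All groups went through transfection, and untransfected cells were not analysed here. Nothing used here gives the number of siRNAs per target, their sequences, the dose or the time of harvest. Each group stands for 1 cell line and 1 transient treatment. No source says how the replicate cultures were kept apart, so p-values measure the spread between these samples, which may be technical.

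NADPH is the electron donor for reductive biosynthesis, including fatty acid elongation, and for the regeneration of reduced glutathione and thioredoxin. In the oxidative branch of the pentose phosphate pathway, PGLS opens the lactone ring of 6-phosphogluconolactone and PGD oxidizes 6-phosphogluconate with release of NADPH. TKT and TALDO1 move carbon units between sugar phosphates in the non-oxidative branch and make no NADPH themselves. Outside the pathway, ME1 makes NADPH in the cytosol from malate, IDH1 in the cytosol and peroxisomes and IDH2 in mitochondria from isocitrate, MTHFD1 in cytosolic folate metabolism, and NNT in the inner mitochondrial membrane from NADH.

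Values are read counts after quantile normalization, called normalized counts here, with the same total of 8.525 M for each library. Sequencing depth itself was estimated at 6.70 to 10.7 M reads. ELOVL2 stood at 18.4 to 30.1 normalized counts in siELOVL2 cells and 19.9 to 26.5 with both siRNAs, against 211 to 299 in control cells. ELOVL5 stood at 141 to 156 in siELOVL5 cells and 172 to 187 with both siRNAs, against 1939 to 2038 in control cells. Of 11 kidney epithelial or renal carcinoma markers, 9 exceeded 10 in every library, among them PAX8 at 511 to 677, while CA9 and CDH16 reached only 29.1 and 23.3. The sum of these 11, mostly VIM, was 28917 to 29753 in siELOVL2 cells, 28289.5 to 34844 in siELOVL5 cells and 27501 to 30282 with both siRNAs, against 33929 to 37079 in control cells. CD3E and LUM were at 0 in all 12 libraries, PTPRC reached at most 2.83 and DCN at most 1.67. The summed level of 6 fibroblast and pericyte markers was 365 to 460 in siELOVL2 cells, 493 to 539 in siELOVL5 cells and 383 to 427 with both siRNAs, against 477 to 539.5 in control cells, carried mainly by COL1A1 and RGS5, with LUM at 0. The sum of 4 endothelial markers was 14.2 to 30.0 in siELOVL2 cells, 14.4 to 17.7 in siELOVL5 cells and 8.75 to 18.8 with both siRNAs, against 2.17 to 13.1 in control cells, most of it TEK, with CDH5 at 2.08 or less. The sum of 6 leukocyte markers, nearly all CD68, was 302 to 329 in siELOVL2 cells, 295 to 325 in siELOVL5 cells and 295 to 455 with both siRNAs, against 316 to 364 in control cells. Their part in the results below was not tested. In bulk RNA, fewer cells of a type and less RNA per cell cannot be told apart.

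Short promoter windows are printed for PGD, IDH1 and ME1, the members that hold the core letters of the antioxidant response element. That element is known to be bound by the factor NRF2. The windows searched run from 250 bases before to 50 after each start site (RefSeq, GRCh38.p14). All 9 genes have an entry, with 11 windows because IDH1 and NNT have more than 1. Capitals mark the match to TGACNNNGC on either strand, and in PGD the match lies on the strand opposite to the gene.
PGD, chr1:10398855-10398879, plus strand: tcgccgggGCAATGTCAtctaggtg
IDH1, chr2:208255198-208255222, minus strand: cctctcgcTGACTCCGCccatccca
ME1, chr6:83431172-83431196, minus strand: tcctgccaTGACTCAGCgcttctcg
The first capital base lies at position -201 from the start site of PGD, -143 from that of IDH1 and -137 from that of ME1. ME1 has another match that begins past its start site. The same letters occur in 3 of the 11 windows of the 9 genes, beside 4687 of 35116 promoter windows in the table (13.3%). No such match was found in the windows of TKT, TALDO1, PGLS, IDH2, MTHFD1 and NNT. The sterol response element letters TCACNCCAC were found in no window of the 9 genes and in 1.13% of all windows, and the E-box CACGTG in those of NNT and MTHFD1 and in 7.26% of all. No window of the 9 genes held more than 1 of the 3 motifs, and a match of letters is a description, not a binding site.

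PGD was higher in the groups that received the ELOVL2 siRNA. It stood at 3754, 4199.7 and 4814 normalized counts in siELOVL2 replicates 1, 2 and 3. It stood at 3023, 3418 and 3105 in siELOVL5 replicates and 3965, 4217 and 4657 in double-knockdown replicates, against 3196, 3284 and 3499 in control replicates. All 6 libraries with the ELOVL2 siRNA lay above all 6 without it, while siELOVL5 and control libraries overlapped. The means were 4256 ± 533 in siELOVL2 cells, 3182 ± 209 in siELOVL5 cells, 4280 ± 350.1 with both siRNAs and 3326 ± 156 in control cells (SD, n = 3 each). Against control, PGD was 1.27-fold in siELOVL2 cells (log2 0.35, 95% interval 0.14 to 0.56, adjusted p = 0.102) and 1.28-fold with both siRNAs (log2 0.36, adjusted p = 0.0530 by limma), and neither passed the threshold of 0.05. In siELOVL5 cells it differed from control by -0.06 on the log2 scale (interval -0.27 to 0.14).

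PGLS, the other gene of the oxidative branch measured here, showed smaller differences. It stood at 463, 471 and 515 in siELOVL2 replicates, 397, 464 and 515 in siELOVL5 replicates and 445, 497 and 504 in double-knockdown replicates, against 412, 404 and 455 in control replicates. The siELOVL2 libraries lay above control, with a lowest value of 463 against a highest of 455, and the other knockdown groups overlapped control. The log2 difference from control was 0.19 in siELOVL2 cells (limma adjusted p = 0.453), 0.11 in siELOVL5 cells (adjusted p = 0.773) and 0.18 with both siRNAs (adjusted p = 0.359).

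TKT lay above control in siELOVL2 cells and below it in siELOVL5 cells. It stood at 9307, 10102.5 and 10299 in siELOVL2 replicates, 6112, 6684.5 and 6705 in siELOVL5 replicates and 8929, 9165 and 9374 in double-knockdown replicates, against 7833, 7833 and 8362 in control replicates. No library of one group overlapped one of another, except that siELOVL2 and double-knockdown libraries overlapped. The means were 9903 ± 525 in siELOVL2 cells, 6500.4 ± 337 in siELOVL5 cells, 9156 ± 222 with both siRNAs and 8009.5 ± 305 in control cells (SD, n = 3 each). TKT was 1.24-fold of control in siELOVL2 cells (log2 0.31, SE 0.072, limma adjusted p = 0.0583), 0.811-fold in siELOVL5 cells (log2 -0.30, SE 0.072, adjusted p = 0.170) and 1.14-fold with both siRNAs (log2 0.19, adjusted p = 0.159).

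TALDO1, the partner of TKT in the non-oxidative branch, varied within a narrow range. It stood at 4600.0, 4493 and 4754 in siELOVL2 replicates, 4405, 4397 and 4284 in siELOVL5 replicates and 4671, 4863 and 4788 in double-knockdown replicates, against 4390.0, 4231 and 4251 in control replicates. The siELOVL2 and double-knockdown libraries lay above all controls, and the siELOVL5 libraries overlapped them. Its log2 difference from control was 0.11 in siELOVL2 cells (limma adjusted p = 0.477), 0.02 in siELOVL5 cells (adjusted p = 0.933) and 0.15 with both siRNAs (adjusted p = 0.177). The ratio of TKT to TALDO1 is used only to compare groups, since gene length is not removed from it. It was 2.15 ± 0.11 in siELOVL2 cells, 1.49 ± 0.092 in siELOVL5 cells and 1.92 ± 0.037 with both siRNAs, against 1.87 ± 0.092 in control cells (SD, n = 3 each).

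**Figure D1:**
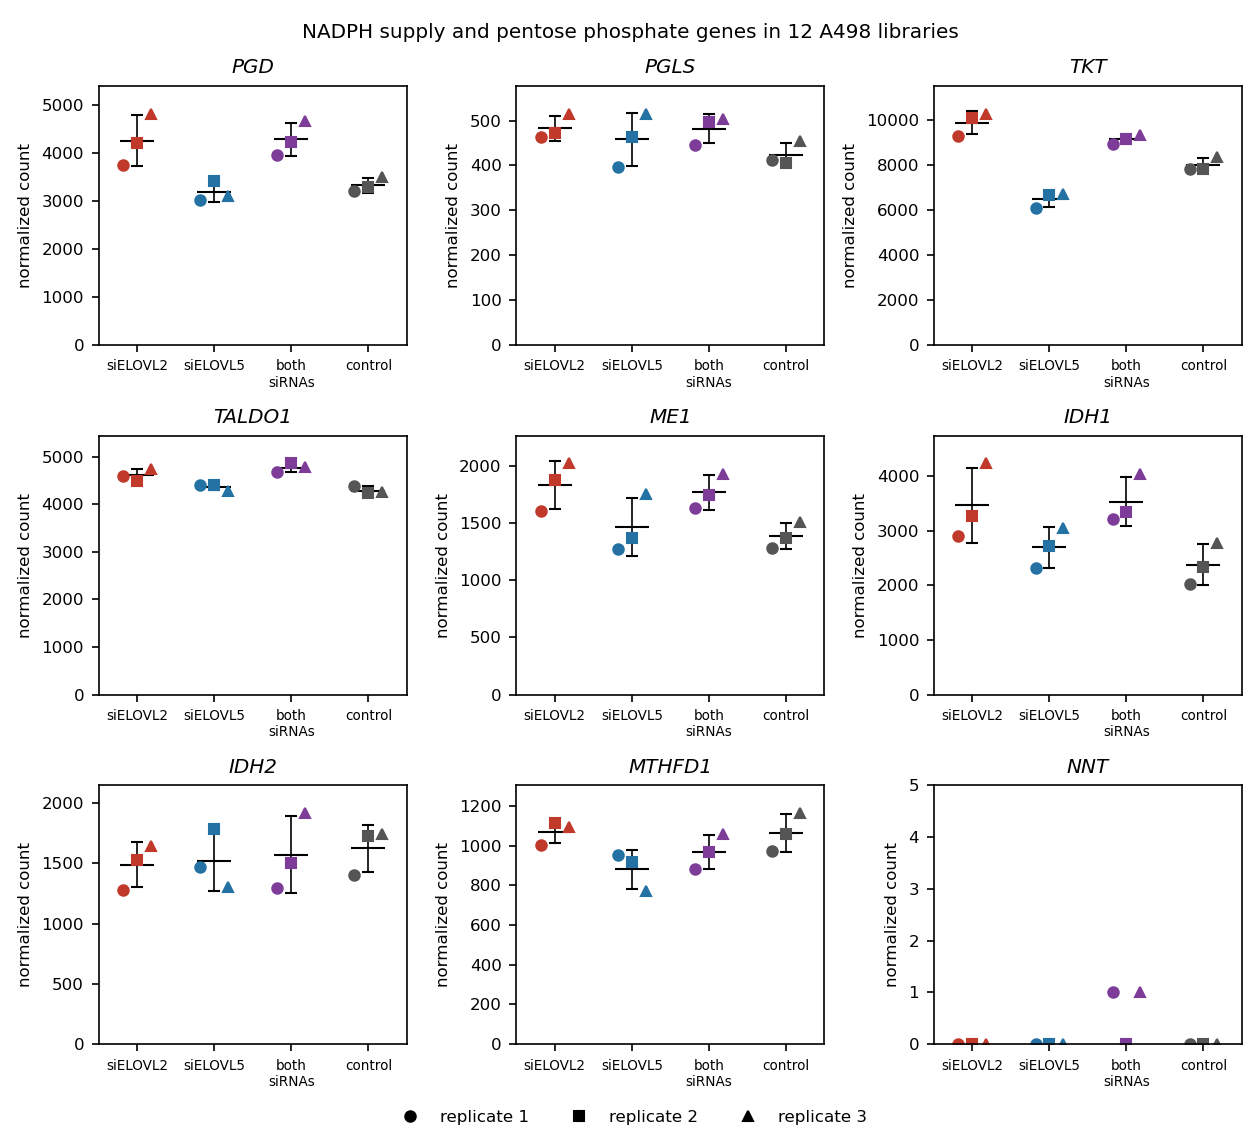
Normalized counts of the 9 genes, 1 panel each with its own vertical axis from 0, in siELOVL2, siELOVL5, double-knockdown and control cells. Points are libraries, marker shapes are replicate numbers, and lines with bars are the mean and SD of 3 libraries (no bar for NNT); the 6 libraries with the ELOVL2 siRNA lie above the other 6 for PGD, TKT and TALDO1.

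ME1, the cytosolic malic enzyme, stood at 1605, 1879 and 2025 in siELOVL2 replicates, 1272, 1371 and 1756 in siELOVL5 replicates and 1630, 1746 and 1933 in double-knockdown replicates, against 1284, 1371.5 and 1507 in control replicates. Every siELOVL2 and double-knockdown library lay above every control. In siELOVL5 cells replicate 3 was high, and the other replicates lay among or just below the controls. ME1 was 1.32-fold of control in siELOVL2 cells (log2 0.40, SE 0.12, limma adjusted p = 0.148), 1.05-fold in siELOVL5 cells (adjusted p = 0.898) and 1.27-fold with both siRNAs (log2 0.35, adjusted p = 0.137).

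IDH1, the cytosolic and peroxisomal isocitrate dehydrogenase, had the largest fold differences from control of the 8 genes tested, with the ELOVL2 siRNA alone or with both siRNAs. It stood at 2904, 3276 and 4239 in siELOVL2 replicates, 2318, 2721 and 3053 in siELOVL5 replicates and 3209.6, 3340.3 and 4047 in double-knockdown replicates, against 2032, 2345 and 2772 in control replicates. The siELOVL2 and double-knockdown libraries all lay above the controls, and siELOVL5 libraries overlapped both the control and the siELOVL2 libraries. IDH1 was 1.45-fold of control in siELOVL2 cells (log2 0.54, SE 0.15, limma adjusted p = 0.120), 1.13-fold in siELOVL5 cells (log2 0.18, adjusted p = 0.742) and 1.49-fold with both siRNAs (log2 0.57, SE 0.15, adjusted p = 0.0556).

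IDH2, its mitochondrial counterpart, stood at 1282, 1532.5 and 1647 in siELOVL2 replicates, 1471, 1785 and 1302 in siELOVL5 replicates and 1298, 1503 and 1919 in double-knockdown replicates, against 1402, 1725 and 1748 in control replicates. All 4 groups overlapped, and the log2 difference from control was -0.13 in siELOVL2 cells (95% interval -0.46 to 0.21), -0.10 in siELOVL5 cells (-0.44 to 0.23) and -0.06 with both siRNAs (-0.39 to 0.28). The ratio of IDH1 to IDH2 was 2.27, 2.14 and 2.57 in siELOVL2 replicates, 1.58, 1.52 and 2.34 in siELOVL5 replicates and 2.47, 2.22 and 2.11 in double-knockdown replicates, against 1.45, 1.36 and 1.59 in control replicates. All 6 libraries with the ELOVL2 siRNA lay above all controls, and siELOVL5 replicate 3 stood among those 6.

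**Figure D2:**
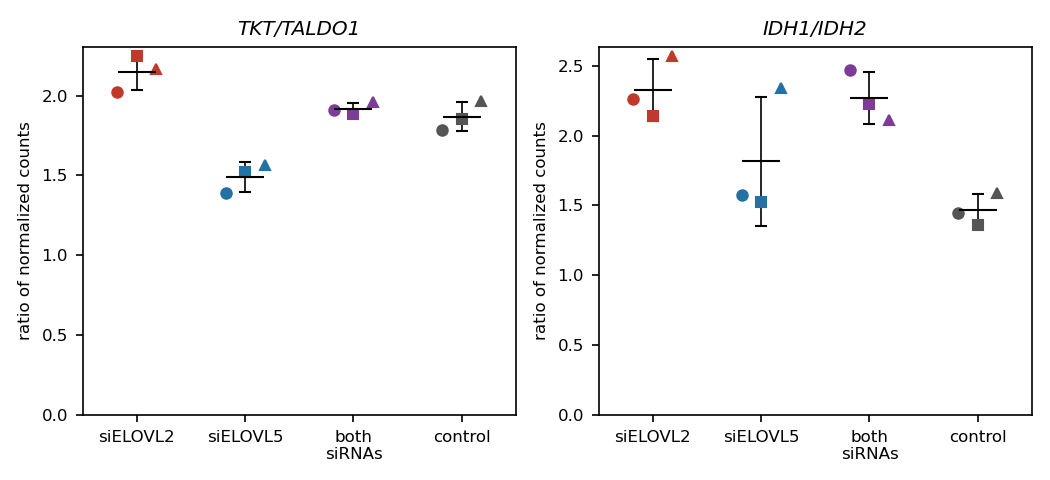
Ratio of TKT to TALDO1 and of IDH1 to IDH2 normalized counts (vertical axes) in the 4 groups. Points are libraries and lines with bars the mean and SD of 3; the TKT to TALDO1 ratio averages 1.49 in siELOVL5 cells against 1.87 in control cells, and siELOVL5 replicate 3 stands at 2.34 for IDH1 to IDH2.

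MTHFD1, a trifunctional enzyme of folate metabolism, stood at 1004, 1114 and 1097 in siELOVL2 replicates, 955, 919 and 769.9 in siELOVL5 replicates and 885, 968 and 1057.5 in double-knockdown replicates, against 976, 1057.5 and 1166 in control replicates. The siELOVL5 libraries lay below every control, and the other knockdown groups overlapped control. The log2 difference was 0.01 in siELOVL2 cells (limma adjusted p = 0.993), -0.28 in siELOVL5 cells (SE 0.10, adjusted p = 0.413) and -0.14 with both siRNAs (adjusted p = 0.522).

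NNT, the mitochondrial transhydrogenase, was at or near 0 in every library and was not tested. It stood at 0 in all siELOVL2, siELOVL5 and control replicates and at 1 in double-knockdown replicates 1 and 3, with 0 in replicate 2. Each of those values of 1 corresponds to 1 read recovered from the order of tied values, which makes 2 reads in all 12 libraries. In the 10 libraries at 0, a count of 0 allows up to 3 reads, or 0.281 to 0.447 reads per 1 M reads at their depths, counting error only. Neighbours of NNT on the chromosome, by RefSeq order, were well measured: PAIP1 stood at 527 to 733 and MRPS30 at 550.5 to 809. The antisense gene NNT-AS1 was at 0 in 9 of 12 libraries and reached 2.83, and FGF10, the next protein-coding gene on the other side, was at 0 in all 12.

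**Figure D3:**
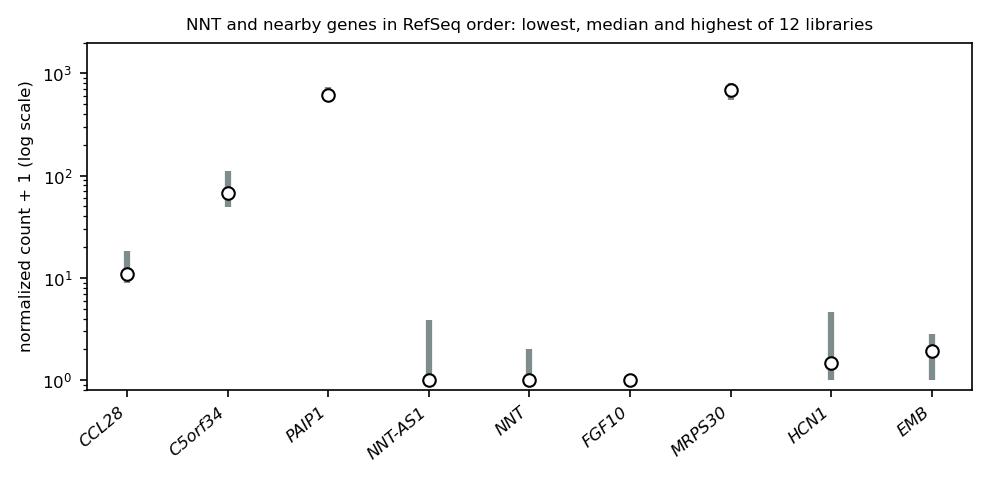
Normalized count + 1 on a log-scaled vertical axis for NNT and nearby genes in RefSeq order (horizontal axis), where circles are medians and bars run from the lowest to the highest of 12 libraries. PAIP1 and MRPS30 stand at 527 or more in every library, while NNT reaches 1 and NNT-AS1 reaches 2.83.

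To compare levels between genes, the normalized count was divided by the length of the principal transcript in GENCODE 29, which may differ from the annotation that was counted. In control cells TALDO1 stood highest at 3188 ± 64.2 normalized counts per kb, TKT next at 2743 ± 105, PGD at 1765 ± 82.5 and IDH1 at 1000.5 ± 156 (SD, n = 3 each). IDH2 followed at 603 ± 71.8, then PGLS at 412 ± 26.3 and ME1 at 412 ± 33.4, which differed by less than their spread, and MTHFD1 at 340.0 ± 30.4. Of 14224 tested genes with a known length, 87.2% stood below MTHFD1 and 99.1% below TALDO1 on this scale.

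Across each knockdown against control, no member passed the threshold in the main fit. That fit has 4 group means, 12 libraries weighted equally, a filter at 1 and no replicate block. Some other settings, given at the end of this paragraph, did call members. In siELOVL2 cells 0 of 8 were called by limma (1.36% of all genes tested), 4 had an unadjusted p under 0.05 (13.7% of all) and 6 lay wholly above control (12% of all). In siELOVL5 cells 0 of 8 were called (0.139% of all), 2 had an unadjusted p under 0.05 (9.56% of all), and TKT and MTHFD1 lay wholly below control (7.04% of all). With both siRNAs 0 of 8 were called (4.42% of all), 5 had an unadjusted p under 0.05 (18.8% of all) and 5 lay wholly above control (13.4% of all). The median of the 8 log2 fold changes was 0.25 in siELOVL2 cells, -0.02 in siELOVL5 cells and 0.19 with both siRNAs, beside 0.02, -0.00387 and 0.02 over all genes tested. These comparisons share the control libraries. Near the threshold, calls turned on 1 library: without siELOVL5 replicate 3, which shares in the estimate of the spread, TKT (adjusted p = 0.0171) and ME1 (0.0355) were called in siELOVL2 cells, and PGD (0.0297), IDH1 (0.0303) and ME1 (0.0375) with both siRNAs. Without siELOVL2 replicate 1, PGD was called with both siRNAs (0.0412), and without siELOVL2 replicate 3 so were PGD (0.0373) and IDH1 (0.0371). With libraries weighted by their estimated quality, 4 of 8 were called in siELOVL2 cells (PGD, TKT, ME1 and IDH1), 1 in siELOVL5 cells (TKT, lower, adjusted p = 0.0363) and 5 with both siRNAs (the same 4 and TALDO1). With a filter at 10 in place of 1, TKT was called in siELOVL2 cells (0.0274), and PGD (0.0387) and IDH1 (0.0448) with both siRNAs. With the replicate number as a block, PGD (limma adjusted p = 0.0169), TKT (0.00840), ME1 (0.00525) and IDH1 (0.000539) were called in siELOVL2 cells. The same genes were called with both siRNAs (0.00733, 0.0411, 0.00559 and 0.000200), and TKT was called lower in siELOVL5 cells (0.0380).

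Set directly against siELOVL5 cells, the 2 pentose phosphate genes TKT and PGD were higher with the ELOVL2 siRNA. In siELOVL2 against siELOVL5 cells TKT was 1.52-fold (log2 0.61, SE 0.072, limma adjusted p = 0.000720) and PGD 1.33-fold (log2 0.41, SE 0.096, adjusted p = 0.0376), so 2 of 8 were called higher (1.56% of all genes tested, 3.01% in either direction). In double-knockdown against siELOVL5 cells TKT was 1.41-fold (log2 0.50, SE 0.072, adjusted p = 0.00333) and PGD 1.34-fold (log2 0.43, SE 0.096, adjusted p = 0.0346), again 2 of 8 called higher (1.36% of all, 2.77% in either direction). In each, 4 of 8 lay wholly above the siELOVL5 libraries (11.7% of all for siELOVL2, 11.4% for double-knockdown). TKT kept its call in both without any 1 of the 12 libraries, with adjusted p up to 0.00813 and 0.0226. Fitted on the compared groups alone, with fewer libraries to estimate the spread, neither gene was called: TKT had an adjusted p of 0.0593 in siELOVL2 and 0.115 in double-knockdown against siELOVL5 cells, and PGD 0.185 and 0.182. In siELOVL2 against siELOVL5 cells PGD lost its call without 8 of the 12 libraries, with limma adjusted p up to 0.152 (siELOVL2 replicate 3 left out), and in double-knockdown against siELOVL5 cells without 7, with adjusted p up to 0.107 (double-knockdown replicate 3 left out). The libraries whose loss ended the siELOVL2 call were control replicates 1, 2 and 3 (0.0556, 0.0629 and 0.0519), siELOVL2 replicates 2 and 3 (0.129 and 0.152), siELOVL5 replicates 1 and 3 (0.109 and 0.0573) and double-knockdown replicate 2 (0.0614). Those whose loss ended the double-knockdown call were control replicates 1 and 2 (0.0526 and 0.0608), siELOVL2 replicate 2 (0.0625), siELOVL5 replicate 1 (0.106) and double-knockdown replicates 1, 2 and 3 (0.0590, 0.104 and 0.107). ME1 was called without siELOVL5 replicate 3 in siELOVL2 against siELOVL5 cells (0.0313) and in double-knockdown against siELOVL5 cells (0.0477).

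Adding the ELOVL5 siRNA to the ELOVL2 siRNA left no member past the threshold. In double-knockdown against siELOVL2 cells 0 of 8 were called by limma (0.059% of all) and 0 had an unadjusted p under 0.05 (3.6% of all), with log2 differences from -0.15 for MTHFD1 to 0.07 for IDH2. For TKT the difference was -0.11 with a 95% interval from -0.27 to 0.04, so a fall of up to that size is within the error. The interaction, the double-knockdown effect less the sum of the single effects, was called for 0 of 8 members and 0% of all genes by limma, and for 0 members at an unadjusted p under 0.05. For TKT it was 0.19 on the log2 scale (interval -0.03 to 0.41).

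A contrast between the 6 libraries with the ELOVL2 siRNA and the 6 without it was added after the values had been seen, so it adds no evidence independent of the groups it pools. TKT was 1.32-fold (log2 0.40, SE 0.051, limma adjusted p = 0.000512), PGD 1.31-fold (log2 0.39, SE 0.068, adjusted p = 0.00401), IDH1 1.38-fold (log2 0.46, SE 0.11, adjusted p = 0.0190) and ME1 1.27-fold (log2 0.34, SE 0.087, adjusted p = 0.0281). These 4 of 8 were called higher and none lower, beside 5.04% of all genes called higher and 9.08% in either direction. TKT, PGD and TALDO1 had all 6 libraries above the other 6 (3.51% of all genes), TALDO1 with a log2 difference of 0.12 (adjusted p = 0.105), while PGLS (0.13, adjusted p = 0.296), MTHFD1 (0.07, adjusted p = 0.589) and IDH2 (-0.04, adjusted p = 0.860) were not called. TKT and PGD kept their calls without any 1 library. With 1 library left out, IDH1 lost its call only without control replicate 1 (0.0538). ME1 lost its call without any 1 of 8 libraries: control replicates 1 and 2 (0.0748 and 0.0671), siELOVL2 replicates 2 and 3 (0.0725 and 0.0746), siELOVL5 replicates 1 and 2 (0.0655 and 0.0623) and double-knockdown replicates 2 and 3 (0.0584 and 0.0612). With no intensity trend in the fit, neither IDH1 (limma adjusted p = 0.0634) nor ME1 (0.0820) was called in this contrast. For the ELOVL5 siRNA, compared in the same way, 0 of 8 were called by limma (0.45% of all) and 2 had an unadjusted p under 0.05 (9.59% of all): TKT at -0.21 (adjusted p = 0.139) and MTHFD1 at -0.21 (adjusted p = 0.344).

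**Figure D4:**
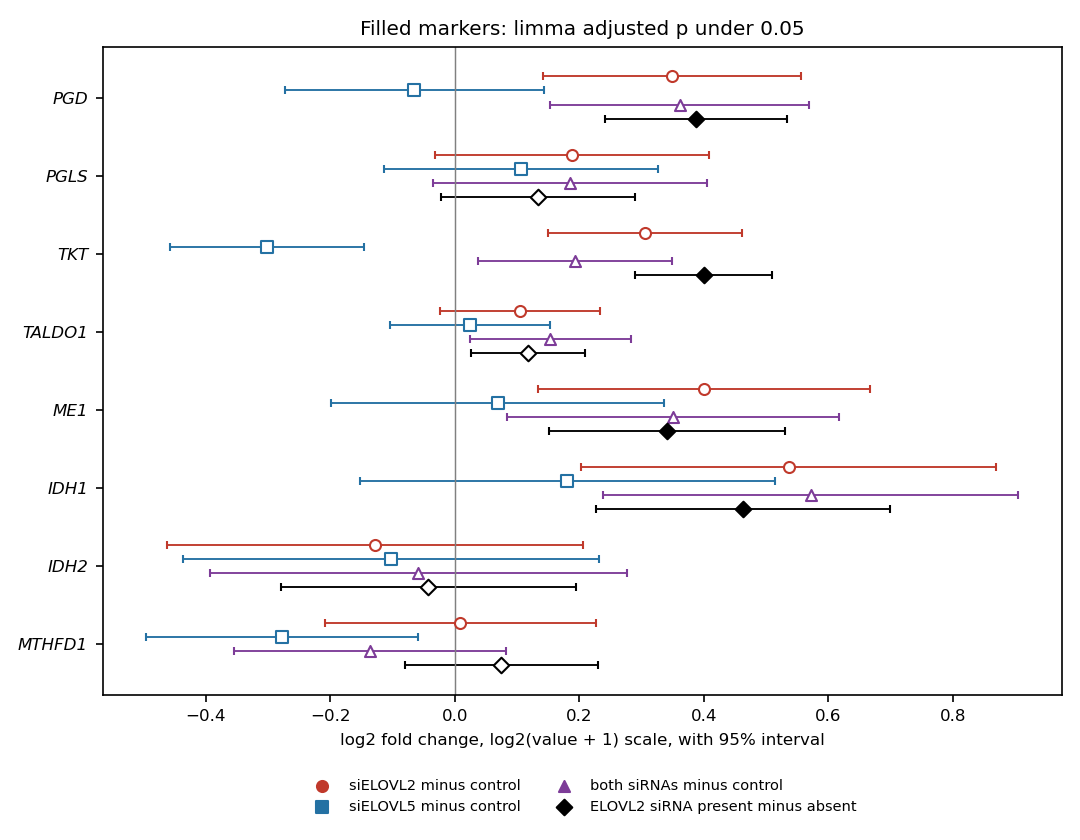
Log2 fold change (horizontal axis, log2(value + 1) scale, bars are 95% intervals from limma) of the 8 tested genes in siELOVL2, siELOVL5 and double-knockdown cells against control and for the ELOVL2 siRNA present against absent, with filled markers where the adjusted p lies under 0.05. TKT stands at 0.31 in siELOVL2 cells and -0.30 in siELOVL5 cells, and only the present-against-absent contrast has filled markers, for PGD, TKT, ME1 and IDH1.

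Other genes of these pathways were read from the same fit. Of 10 tested pentose phosphate companions, among them H6PD, RPIA and RPE, 0 were called by limma in siELOVL2 against control cells and 0 had an unadjusted p under 0.05, with a median log2 fold change of -0.19 against 0.02 over all genes. Of 14 malate, citrate and isocitrate genes 0 were called there (2 at an unadjusted p under 0.05, median 0.05), and of 14 folate genes 0 (3, median -0.03). Of 12 genes of NAD metabolism, mostly NAD kinases and NAD synthesis enzymes, 0 were called (2, median -0.05). Of 19 genes of biosynthesis, most of which use NADPH, 0 were called (0, median 0.07). With 1.36% of all genes called there, 0 called in lists of this size is near the background. An unadjusted p under 0.05 was found there for 13.7% of all genes. In double-knockdown against control cells 0 pentose phosphate companions, 0 folate genes, 0 NAD genes and 0 biosynthesis genes were called, beside 4.42% of all genes. In that order 4, 3, 3 and 0 had an unadjusted p under 0.05 in this comparison, beside 18.8% of all genes. PC, the mitochondrial pyruvate carboxylase, rose there by log2 0.73 (adjusted p = 0.0160), the only malate, citrate and isocitrate gene of 14 called, and lost its call without control replicates 1 or 2, with adjusted p up to 0.0828. In siELOVL5 against control cells 0 genes were called in any of the 7 lists, the 5 above and the 2 below, beside 0.139% of all genes. At an unadjusted p under 0.05 stood 2 pentose phosphate companions, 0 malate, citrate and isocitrate genes, 2 folate genes and 2 NAD genes. So did 1 biosynthesis gene, 2 redox genes and 3 genes of the NRF2 list, beside 9.56% of all genes. With the ELOVL2 siRNA present against absent, where 9.08% of all genes were called, 3 of 14 malate, citrate and isocitrate genes were called higher: PC (0.69, limma adjusted p = 0.00179), the cytosolic aconitase ACO1 (0.35, 0.0192) and the mitochondrial carrier SLC25A11 (0.26, 0.0395). Of 12 NAD genes 1 was called higher, NUDT12 (0.29, 0.0311), and 2 lower, NAMPT, the rate-limiting enzyme of NAD salvage (-0.31, 0.0145), and NAPRT, listed as NAPRT1 (-0.64, 0.0180). Of 14 folate genes ALDH1L2, a mitochondrial enzyme that makes NADPH, was called lower (-0.51, 0.0407), and 0 of 10 pentose phosphate companions and 0 of 19 biosynthesis genes were called (1 of each at an unadjusted p under 0.05). The calls of PC and NAMPT held without any 1 library, and those of ACO1 (0.0546) and NAPRT1 (0.0523) were lost without control replicate 1. SLC25A11 lost its call without control replicates 1 or 2, siELOVL2 replicates 2 or 3, siELOVL5 replicate 2 or double-knockdown replicates 2 or 3 (adjusted p up to 0.107). NUDT12 lost it without any control replicate, siELOVL2 replicates 2 or 3, siELOVL5 replicate 1 or double-knockdown replicates 1 or 3 (up to 0.0815). ALDH1L2 lost it without any control or siELOVL2 replicate, siELOVL5 replicate 2 or double-knockdown replicates 2 or 3 (up to 0.103). PC was also called in siELOVL2 (0.64, 0.0383) and double-knockdown cells (0.73, 0.0229) against siELOVL5 cells, and NAMPT was lower there (-0.43, 0.0326, and -0.46, 0.0254). The siELOVL2 calls were lost for PC without control replicate 2, siELOVL2 replicates 2 or 3, any siELOVL5 replicate or double-knockdown replicate 2 (up to 0.159), and for NAMPT without control replicates 1 or 2, any siELOVL2 replicate, siELOVL5 replicate 1 or double-knockdown replicate 2 (up to 0.154). The double-knockdown calls were lost for PC without siELOVL5 replicate 1 or double-knockdown replicates 2 or 3 (up to 0.0785), and for NAMPT without siELOVL5 replicate 1 or any double-knockdown replicate (up to 0.0927). NAMPT averaged 11756 ± 926 in siELOVL2 cells and 11524 ± 733 with both siRNAs. Its mean was 15918 ± 1871 in siELOVL5 cells, against 13043 ± 397 in control cells (SD, n = 3 each). The NAMPT log2 difference from control was -0.15 in siELOVL2 cells (limma adjusted p = 0.536), 0.28 in siELOVL5 cells (0.379) and -0.18 with both siRNAs (0.349).

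Among genes that use NADPH for redox reactions, the reductases POR, NQO1 and PTGR1 rose with the ELOVL2 siRNA. In siELOVL2 against control cells 3 of 19 were called higher and 0 lower by limma, beside 1.36% of all genes called in either direction, with a median of 0.32. POR, which passes electrons from NADPH to cytochromes P450, averaged 3219 ± 295 in siELOVL2 cells, 1871 ± 167 in siELOVL5 cells and 3279 ± 296 with both siRNAs, against 1819 ± 147 in control cells (SD, n = 3 each), a log2 difference of 0.82 in siELOVL2 cells (adjusted p = 0.00123) and 0.85 with both siRNAs (adjusted p = 0.000473). NQO1, a quinone reductase, rose by 0.47 in siELOVL2 cells (adjusted p = 0.0183) and 0.45 with both siRNAs (0.00950), and PTGR1, a prostaglandin reductase, by 0.52 (0.0332) and 0.54 (0.0148). In double-knockdown against control cells 3 of 19 were called higher and 0 lower, beside 4.42% of all genes called, with a median of 0.28. With the ELOVL2 siRNA present against absent 9 of 19 were called higher and 0 lower, beside 9.08% of all genes. POR kept its calls without any 1 library. NQO1 lost its siELOVL2 call without control replicates 1 or 2 or any siELOVL2 replicate (adjusted p up to 0.112) and its double-knockdown call without control replicate 2 (0.0630). PTGR1 lost its siELOVL2 call without control replicates 1 or 2, any siELOVL2 replicate or double-knockdown replicate 2 (up to 0.165), and its double-knockdown call without control replicates 1 or 2 (up to 0.0801).

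A list of 16 genes took reference targets of NRF2 outside NADPH supply, and also NFE2L2, which encodes NRF2, and the regulators KEAP1 and BACH1. Of the 16, 3 were called higher in siELOVL2 against control cells and 5 in double-knockdown against control cells, and 0 lower in each, beside 1.36% and 4.42% of all genes called, with medians of 0.26 and 0.31. NFE2L2 and KEAP1 were not called, with log2 differences of 0.05 (limma adjusted p = 0.925) and 0.07 (0.731) in siELOVL2 cells. With both siRNAs they were 0.07 (0.850) and 0.07 (0.655). With the ELOVL2 siRNA present against absent, 7 of the 16 were called higher and 2 lower, beside 9.08% of all genes. The 2 lower were BACH1, a repressor that binds antioxidant response elements, at -0.96 (limma adjusted p = 0.00294), and ABCC2, an efflux transporter, at -0.69 (adjusted p = 0.0151). Neither was called in any knockdown against control. BACH1 averaged 772 ± 78.5 in siELOVL2 cells and 860 ± 112 with both siRNAs. Its mean was 2168 ± 1021 in siELOVL5 cells, against 1240 ± 93.7 in control cells (SD, n = 3 each). The BACH1 log2 difference from control was -0.68 in siELOVL2 cells (limma adjusted p = 0.178), 0.71 in siELOVL5 cells (0.344) and -0.53 with both siRNAs (0.226). HMOX1, heme oxygenase, stood at 18624, 14723 and 13851 in siELOVL2 replicates, 1883, 1669 and 1441 in siELOVL5 replicates and 17859, 16379 and 9307 in double-knockdown replicates, against 3298, 2655 and 2508 in control replicates. All 6 libraries with the ELOVL2 siRNA lay above the rest and the siELOVL5 libraries below control, with log2 differences from control of 2.48 in siELOVL2 cells and 2.32 with both siRNAs (limma adjusted p = 9.52e-05 and 0.000114). GCLM, the modifier subunit of glutamate-cysteine ligase, rose by 0.75 in siELOVL2 cells (limma adjusted p = 0.00103) and 0.71 with both siRNAs (0.000714), and both calls held without any 1 library. SQSTM1, an autophagy receptor, rose by 0.51 (0.0271) and 0.58 (0.00654), but its siELOVL2 call was lost without any 1 control or siELOVL2 replicate (up to 0.145). The lists above do not hold every gene of each pathway.

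**Figure D5:**
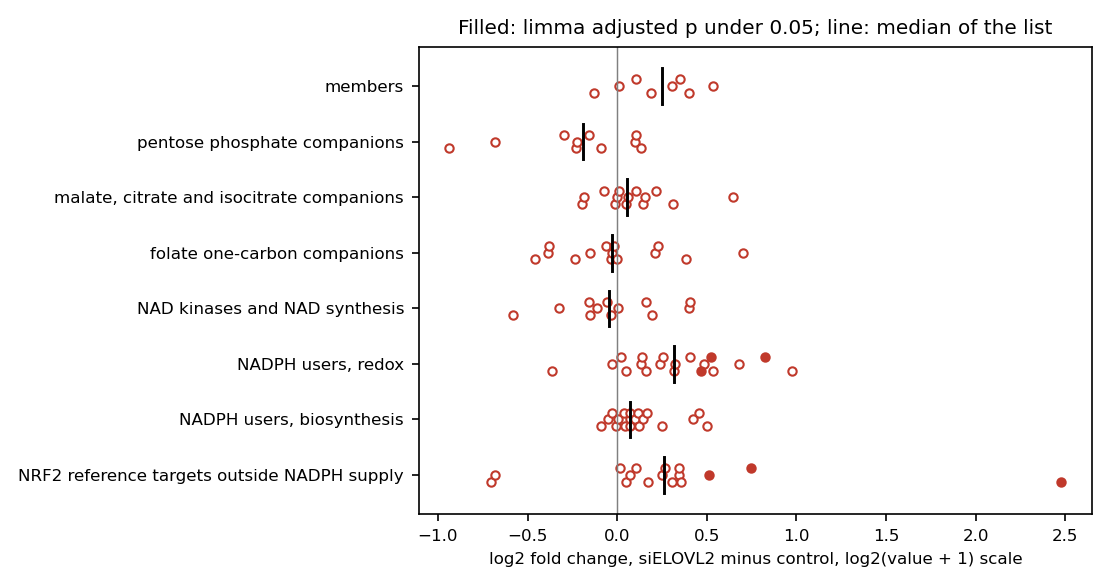
Log2 fold change in siELOVL2 against control cells (horizontal axis) of the tested genes of each list and of the 8 tested members, with 1 circle per gene, filled where the limma adjusted p lies under 0.05, and a line at the median of each list. The redox users of NADPH have a median of 0.32 and the pentose phosphate companions -0.19.

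By likeness of pattern, measured as the root mean square difference of centred log2 values over the 12 libraries among 9324 genes with a mean at or above 93.8, the nearest genes to PGD were AL591479.1 (0.0457), PEBP1 (0.0485) and GPC1 (0.0619). The nearest to TKT were ASB13 (0.0714), NRIP1 (0.0752) and SRPRB (0.0836). PGD and TKT themselves vary by 0.219 and 0.236 around their means on the same measure. GPC1 averaged 5015 in siELOVL2 cells, 3878 in siELOVL5 cells and 5227 with both siRNAs, against 4084 in control cells. The 3 genes per member were named after TKT and PGD had been called between knockdowns, because the rule as first written required a call against control.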

How the data were processed

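The authors deposited a table of normalized signal, with 57773 genes and 12 libraries. The values are multiples of 1 over 12, and every column holds the same set of values, the result that quantile normalization of read counts gives; the total of 8.525 M per column is therefore not a depth. Depth was estimated from the order of tied low values and tested on simulated data. Neither the aligner nor the counting tool, annotation or build is given in the sources used here.

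limma 3.58.1 (R 4.3.3) was run on log2(value + 1), with 4 group means, 8 residual degrees of freedom, an intensity trend and Benjamini-Hochberg adjustment over all tested genes. A gene entered the test when 3 or more libraries held a value of 1 or more, and was called at an adjusted p under 0.05. Fold changes are on the log2(value + 1) scale, and understate the change of low genes. Alternatives were the replicate number as a block, pseudocount 8, no filter or a filter at 10, TMM scaling, no trend, the compared groups alone, library weights and each library left out. Sums of reads shared with near copies could not be told apart, but PGDP1 and MTHFD1P1 stood at 0, TKTL1 at 1.67 or less, TKTL2 at 5.58 or less and IDH1-AS1 at 1.92 or less. Strandedness is not given.

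The members and lists were chosen with earlier results of these data known, so their adjusted p-values are no independent support. Of the lists' genes, 108 matched by name, 1 by a RefSeq synonym and 2 did not. The rule for named genes took the 9 members, ELOVL2, ELOVL5, up to 3 called genes per list and knockdown against control, HMOX1 and the nearest patterns. Markers, neighbours of NNT, list genes given as examples and genes called in other contrasts were named outside it, after their values were seen. Figures were drawn with matplotlib 3.10.9.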

Additional observations from a re-analysis of the deposited data

Results flagged for a closer look

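TKT and PGD differed between the siELOVL2 and siELOVL5 effects, by a test of the difference itself. For TKT, siELOVL2 minus siELOVL5 was 0.61 on the log2 scale (limma adjusted p = 0.000720), with 3 of 3 siELOVL2 libraries above all siELOVL5 libraries. For PGD it was 0.41 (limma adjusted p = 0.0376), also with 3 of 3 above, and the call was lost without 8 of the 12 libraries. Fitted on the 2 groups alone, neither was called (limma adjusted p = 0.0593 for TKT and 0.185 for PGD). Groups of 3 are too small for the test for a single outlying library.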

How the results depend on the processing

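Whether replicate numbers pair the libraries is not settled. Only 9 of 18 same-number pairs correlated above 0.1 (lowest -0.00123, highest 0.212), but 10 of 12 libraries correlated best with their own number. The main fit leaves the replicate number out. With the number as a replicate block, members called were 4 in siELOVL2, 1 in siELOVL5 and 4 in double-knockdown cells against control (0 each without it), 4 and 4 in double-knockdown and siELOVL2 against siELOVL5 cells (2 each), and 1 for the ELOVL5 siRNA; genes called were 861, 99, 1866, 1368 and 1317, and 2755 and 214 for the ELOVL2 and ELOVL5 siRNA (254, 26, 825, 516, 562, 1694 and 84 without it).

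Members called were 1 (siELOVL2) and 2 (double) against control with the filter at 10, 1 and 1 in double-knockdown and siELOVL2 against siELOVL5 with no filter, and 1 in the last with TMM scaling. Library weights gave 4, 1 and 5 in siELOVL2, siELOVL5 and double-knockdown against control and 1 for the ELOVL5 siRNA. Without the trend, double-knockdown and siELOVL2 against siELOVL5 gave 1 each and the ELOVL2 siRNA 2; with the compared groups alone both gave 0.

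Genes called, in the order siELOVL2, siELOVL5 and double-knockdown against control, double-knockdown against siELOVL2, double-knockdown and siELOVL2 against siELOVL5, were 1569, 145, 2241, 27, 1251 and 1643 with library weights (3370 and 344 for the ELOVL2 and ELOVL5 siRNA). Without the trend they were 101, little changed, 413, 21, 200 and 213 (interaction 9, siRNAs 1122 and 44). With the groups alone they were 412, 1, little changed, 1, 21 and 49. Leaving out 1 library gave 63 to 829, 9 to 39, 325 to 1775, 2 to 16, 154 to 791 and 165 to 707 (siRNAs 1051 to 2522 and 29 to 145), and members called 0 to 2 in siELOVL2 and 0 to 3 in double-knockdown against control, 1 to 3 and 1 to 2 in double-knockdown and siELOVL2 against siELOVL5, and 2 to 4 for the ELOVL2 siRNA.

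Signs turned only for uncalled members. With TMM scaling MTHFD1 in siELOVL2 against control was -0.0071. Library weights gave -0.024 (ME1) in siELOVL5 against control, -0.0069 (PGD), 0.014 (PGLS) and -0.0073 (IDH2) in double-knockdown against siELOVL2, -0.12 (IDH2) in double-knockdown against siELOVL5 and -0.058 (ME1) for the ELOVL5 siRNA. With 1 library left out, the ranges that crossed 0 against control were -0.053 to 0.075 (MTHFD1) in siELOVL2, -0.22 to 0.0028 (IDH2) and -0.068 to 0.16 (ME1) in siELOVL5 and -0.21 to 0.071 (IDH2) in double-knockdown cells. In double-knockdown against siELOVL2 they were -0.085 to 0.19 (IDH1), -0.083 to 0.20 (IDH2), -0.14 to 0.024 (ME1), -0.074 to 0.11 (PGD) and -0.037 to 0.053 (PGLS). Against siELOVL5, double-knockdown gave -0.11 to 0.17 (IDH2) and -0.022 to 0.17 (PGLS), and siELOVL2 gave -0.13 to 0.096 (IDH2) and -0.018 to 0.17 (PGLS). The interaction gave -0.27 to 0.0071 (IDH1), -0.21 to 0.018 (ME1) and -0.0095 to 0.17 (PGD), the ELOVL2 siRNA -0.12 to 0.022 (IDH2), and the ELOVL5 siRNA -0.092 to 0.048 (IDH2), -0.059 to 0.057 (ME1) and -0.070 to 0.020 (PGD). The cause was not tested. NNT, at 2 reads in all, allowed no comparison.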
